A study of Mus musculus with 12 samples.

Results

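The 43 interferon-stimulated genes described here are a list of gene symbols with known induction by interferons. The list was chosen with earlier results of these data known. All 43 of 43 were found among the 48397 symbols of the count table, and all 43 passed the filter on low counts that left 21457 genes for testing. They were measured by RNA sequencing in CD44+ CD8+ T cells, that is, killer T cells that carry the surface protein CD44. The cells were sorted from 4 mice with the Kaede transgene (Kaede-Tg) in which melanomas of the line YUMMER1.7 had been implanted. Kaede is a fluorescent protein that light turns from green to red. Tumors were exposed to light on day 11 and organs were taken on day 12. A red cell in the tumor on day 12 is called tumor-retained and a red cell in the tumor-draining lymph node is called egressed. The third group, spleen, was sorted from the same tumor-bearing mice as CD44+ CD8+ cells, with no mention of Kaede colour. Each group had 4 libraries. The labels give neither the age nor the sex of the mice, and red colour records where a cell was on day 11, not how long it had been there.

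Interferons are secreted proteins that alert cells to infection and to tumors. Type I interferons bind a receptor of the chains Ifnar1 and Ifnar2 and lead to a complex that holds Stat2 and Irf9 and binds a promoter element called ISRE (interferon-stimulated response element). Interferon gamma, which activated CD8+ T cells make themselves, binds Ifngr1 and Ifngr2 and acts through an element called GAS (gamma-activated sequence). The genes so induced include transcription factors that extend the response, antiviral effectors, sensors of foreign nucleic acid, regulators that dampen the signal, and GTPases that attack the vacuoles of pathogens.

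The promoters of the list show both elements. The ones printed here are a selection of those whose sites are grouped, duplicated or belong to a gene that the results turn on. Others with grouped sites, such as Bst2, Irgm1, Oas1a, Ifit1 and Gbp7, are not printed. RefSeq windows of 300 bases, from 250 before to 50 after a start on GRCm38.p6 (the sequence of mm10), were at hand for 32 of the 43 genes, as 39 windows. A search for GAAANNGAAA, which reads TTTCNNTTTC on the other strand, found an ISRE-like match in 20 of the 39 windows (51.3%), against 3.44% of 32851 windows of all genes. A search for the palindromic form TTCNNNGAA found a GAS-like match in 10 of the 39 windows (25.6%), against 8.30% of all windows. Both stood in 6 of the 39 member windows (15.4%) and in 0.454% of all windows. All 6 GTPase genes with a window held an ISRE-like match. A match is a string of letters in the window, and binding was not measured. In the stretches below, capitals mark the matches with any overlap between them, and 20 bases on each side are in lower case.
Isg15, the ubiquitin-like modifier, chr4:156200855-156200916, minus strand: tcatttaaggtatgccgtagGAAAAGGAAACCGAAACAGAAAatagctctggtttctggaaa
Ifit3, an antiviral effector, chr19:34583353-34583436, plus strand: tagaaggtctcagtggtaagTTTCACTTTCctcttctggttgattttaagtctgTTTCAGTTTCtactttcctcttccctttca
Ifit3b, its close copy, chr19:34607749-34607832, plus strand: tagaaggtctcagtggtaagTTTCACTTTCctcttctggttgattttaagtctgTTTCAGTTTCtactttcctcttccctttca
Igtp, a GTPase, chr11:58199491-58199551, plus strand: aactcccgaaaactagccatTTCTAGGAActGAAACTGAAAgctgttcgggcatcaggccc
Irgm2, a GTPase, chr11:58214882-58214942, plus strand: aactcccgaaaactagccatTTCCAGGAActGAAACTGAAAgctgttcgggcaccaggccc
Gbp2, a GTPase, chr3:142620584-142620633, plus strand: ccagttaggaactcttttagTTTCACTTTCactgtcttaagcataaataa
Gbp3, a GTPase, chr3:142559979-142560034, plus strand: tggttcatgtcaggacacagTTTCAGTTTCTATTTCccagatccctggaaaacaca
Oas3, an oligoadenylate synthetase, chr5:120777705-120777754, minus strand: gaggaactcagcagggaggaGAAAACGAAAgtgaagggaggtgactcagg
Isg20, an RNA exonuclease, chr7:78913331-78913379, plus strand: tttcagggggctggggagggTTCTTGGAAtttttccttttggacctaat

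Isg15 held 3 overlapping ISRE-like matches, which began 78, 72 and 66 bases before its start. Ifit3 and Ifit3b held matches 34 bases apart, and the 84 bases printed for them did not differ at any base. Igtp and Irgm2 paired a GAS-like and an ISRE-like match 11 bases apart, and their 61 printed bases differed at 2. Gbp2 had its match 59 bases before the start and Oas3 had one 75 bases before. Isg20 had no ISRE-like match at any of its 3 starts and a single GAS-like match 73 bases before one of them. The window of Dtx3l, which partners with Parp9 in ubiquitin and ADP-ribose transfer, held neither.

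Library totals ran from 27.3 to 33.4 M counts (M, mega) for spleen. They ran from 22.7 to 29.2 M for egressed cells and from 25.6 to 36.3 M for tumor-retained cells, so that 3 counts, the limit used for a count of 0, equalled 0.0889 to 0.125 counts per M counts (CPM). The limits cover counting error only. All 9 CD8+ T cell markers were detected in every library. Tumor-retained libraries 3 and 4 stood apart in holding 1890 and 3090 CPM of 10 macrophage markers, against 4.22 to 78.7 CPM in the other 10 libraries, and 4294 and 2070 CPM of 8 stromal markers, against 0 to 48.5 CPM. The 9 CD8+ T cell markers summed to 4207 and 5304 CPM in tumor-retained libraries 3 and 4, against 6467 to 7663 CPM elsewhere. Egressed libraries 3 and 4 and tumor-retained library 1 stood apart in showing 14927, 15251 and 15296 genes with a count, against 20560 to 32165 in the others. In a bulk library fewer expressing cells and less RNA per cell cannot be told apart. Levels below are CPM after TMM scaling, as mean ± SD over n = 4 libraries, and differences are fitted log2 ratios (log2 fold changes) ± SE. Tests are edgeR's quasi-likelihood tests, with p-values adjusted by Benjamini-Hochberg over the 21457 genes. A gene is said to have risen or fallen where its adjusted p was under 0.05.

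**Figure D1:**
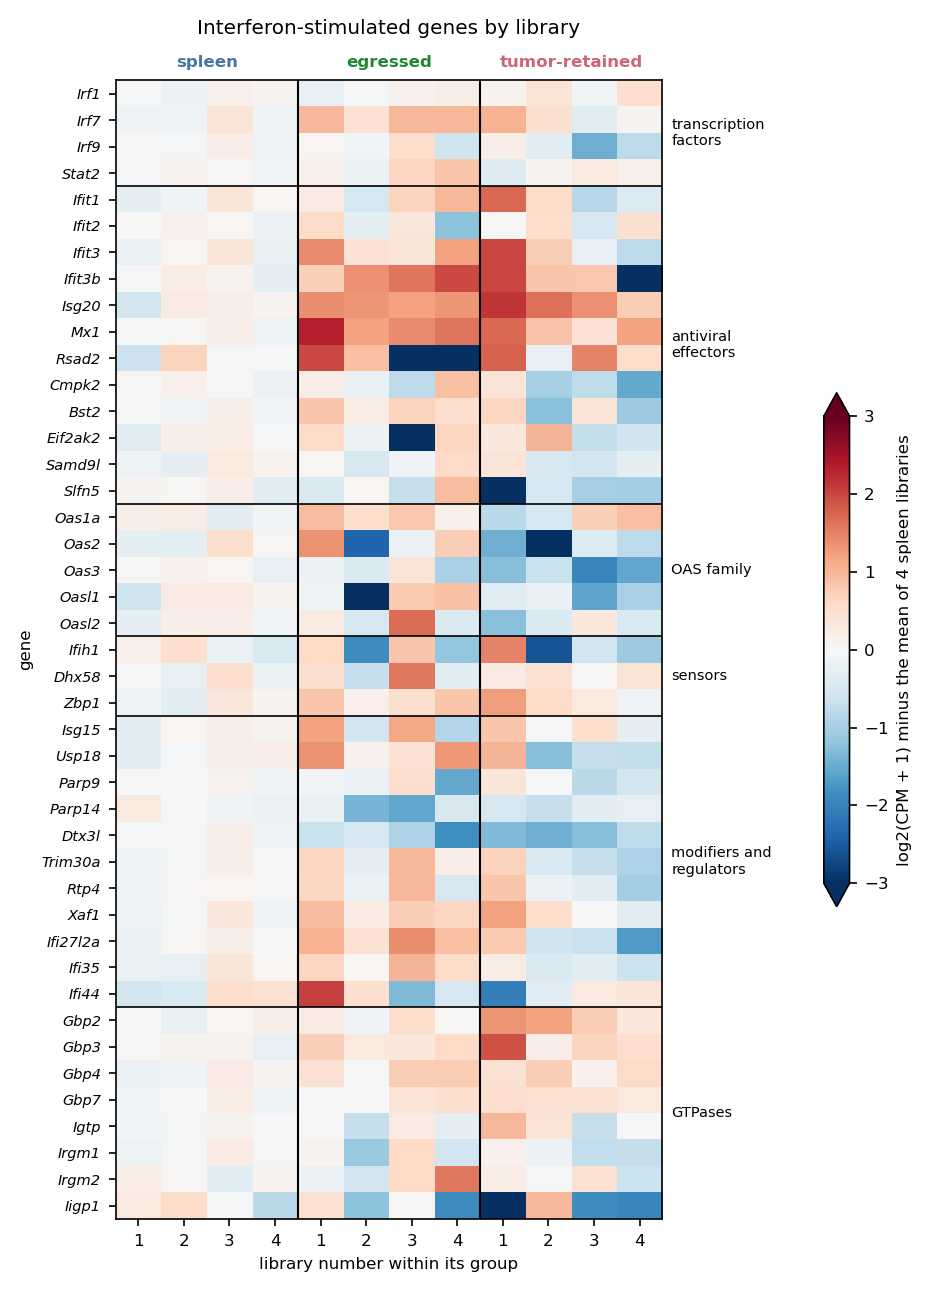
Level of each of the 43 genes in the 12 libraries, as log2(CPM + 1) minus the mean of the 4 spleen libraries of that gene; columns are libraries by group and number, rows are genes by role, and colours beyond 3 in either direction are clipped. The spleen columns are the palest, Isg20 and Mx1 are red in all egressed and tumor-retained columns, and Dtx3l is blue in all of them.

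The list as a whole was expressed in all 3 groups, and few of its genes passed the test between groups. The 43 genes summed to 3934 to 6787 CPM in a library. Per kilobase of exon, averaged over the 12 libraries, Ifi27l2a had the highest level at 277 CPM per kb, followed by the transcription factor Irf1 at 137, the virus tether Bst2 at 118 and Igtp at 115. The lowest level was 0.655 CPM per kb for Ifi44. Between tumor-retained cells and spleen, Isg20 rose and Dtx3l fell. No gene of the list passed between egressed cells and spleen, or between egressed and tumor-retained cells.

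Between tumor-retained cells and spleen, 2 of 43 genes passed, against 2.41% of all genes tested. Of these, 1 rose, against 1.02% of all genes, and 1 fell, against 1.39%, so the count of calls was close to that of genes at large. The labels number the libraries of each group 1 to 4 and do not say that equal numbers share a mouse. Equal numbers were taken as 1 mouse, and this assumed number is called the mouse number. With the mouse number as a block, 0 of 43 passed, against 1.37% of all genes. At an unadjusted p under 0.05 there were 8 of 43 (18.6%), against 16.7% of all genes. In 5 genes (11.6%) every tumor-retained library was above every spleen library, against 4.43% of all genes: Isg20, Gbp2, Mx1, Gbp3 and Gbp7. In 5 every one was below, against 15.9% of all genes: Dtx3l, Oas3, Slfn5, Parp14 and Oas2. Among the 9054 genes with a mean of at least 10 CPM, which hold 42 of the list, 5.33% were called. An unadjusted p under 0.05 in edgeR was found for 23.5% of these 9054, a larger share than in the list. Of the same genes, 8.14% had all tumor-retained libraries above spleen and 17.4% had them all below. The median log2 fold change of the list was 0.03 (23 genes above 0, 20 below), beside -0.15 over all genes.

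Isg20, an exonuclease that degrades single-stranded RNA, on chromosome 7 (78913424 to 78920396, mm10), had 13.9, 25.0, 23.6 and 22.1 CPM in spleen libraries 1 to 4. It had 55.9, 53.4, 49.2 and 53.3 CPM in egressed and 95, 67.4, 55.3 and 35.1 CPM in tumor-retained libraries. The 8 libraries of cells that had been in the tumor were all above the 4 spleen libraries, while the egressed values lay within the tumor-retained range. Isg20 was thus 63.2 ± 25.0 CPM in tumor-retained cells and 21.1 ± 4.99 CPM in spleen, a rise of 1.58 ± 0.32 with an adjusted p of 0.0234 in edgeR. Without tumor-retained libraries 3 and 4, which carried the macrophage and stromal markers, the difference was 1.92 with an adjusted p of 0.0115. Without egressed libraries 3 and 4 and tumor-retained library 1 it was 1.35 with an adjusted p of 0.0220. Leaving out any 1 spleen library ended the call, at adjusted p of 0.0701 to 0.108, as did testing every gene with a count, at 0.0533, and entering the mouse number as a block, at 0.110.

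Dtx3l, on chromosome 16 (35926511 to 35939151, mm10), had 204, 205, 237 and 191 CPM in spleen. It had 131, 146, 110 and 57.5 CPM in egressed and 83.3, 75.2, 85.3 and 123 CPM in tumor-retained libraries. Spleen was above every library of both other groups, which overlapped each other. The gene fell from 210 ± 19.5 CPM in spleen to 91.8 ± 21.5 CPM in tumor-retained cells, by -1.19 ± 0.26 with an adjusted p of 0.0356 in edgeR. Egressed cells, at 111 ± 38.8 CPM, differed from spleen by -0.91 ± 0.26 without passing (adjusted p = 0.207). The tumor-retained call was lost without any 1 spleen library (0.0832 to 0.124), without egressed library 1 or 2 (0.0515 and 0.0550), without tumor-retained library 1, 2 or 3 (0.0719, 0.0765 and 0.0811), under median-of-ratios scaling (0.0576), with every gene that had a count (0.0667) and with the mouse number as a block (0.129). With tumor-retained libraries 3 and 4 left out it was -1.42 with an adjusted p of 0.0551, and without the 3 libraries of few genes it was -1.11 at 0.0112. Dtx3l and Parp9 lie on opposite strands with 682 bases in common, and the labels do not say whether counting used strand, so reads of the common stretch cannot be assigned. Parp9 itself had 138 ± 8.29 CPM in spleen and 121 ± 44.6 CPM in tumor-retained cells (-0.19 ± 0.36, adjusted p = 0.944 in edgeR).

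**Figure D2:**
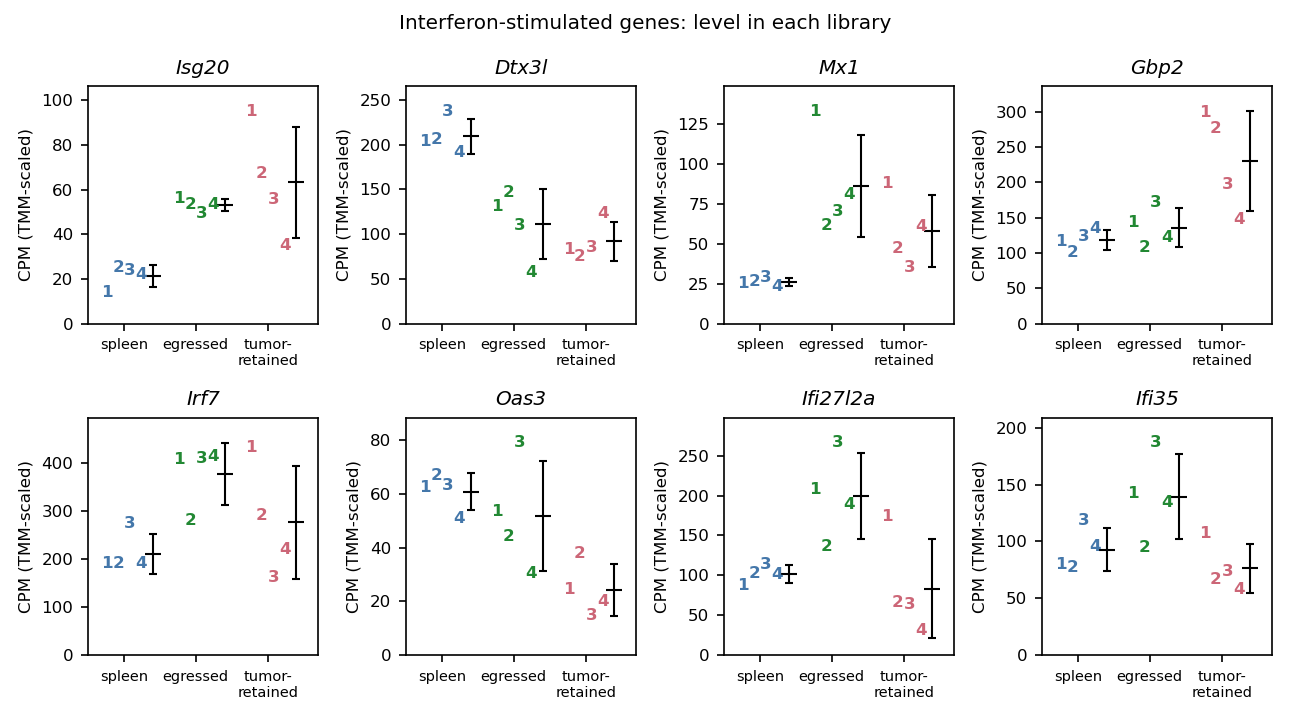
CPM (TMM-scaled) of 8 genes of the list in each library, with digits giving the library number and the bar the mean ± SD of 4 libraries. Isg20 and Mx1 lie above spleen in all egressed and tumor-retained libraries, Dtx3l lies below spleen in all of them, and Gbp2 is above spleen in the tumor-retained libraries.

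Among the interferon-inducible GTPases, some of which lyse pathogen-containing vacuoles, 0 of 8 genes passed between tumor-retained cells and spleen, against 2.41% of all genes. Of the 8, 4 had an unadjusted p under 0.05 in edgeR (16.7% of all genes did, and 23.5% of those of at least 10 CPM). DESeq2 called Gbp2, Gbp3 and Gbp7 (and 8.31% of all genes). Gbp2 had 117, 101, 124 and 134 CPM in spleen, 144, 108, 171 and 122 CPM in egressed and 300, 276, 197 and 147 CPM in tumor-retained libraries. All 4 tumor-retained values were above all 4 spleen values, and egressed values overlapped both groups. The difference was 0.95 ± 0.23 with an adjusted p of 0.0530 in edgeR, and without tumor-retained libraries 3 and 4 it was 1.26 with an adjusted p of 0.0104. Gbp3 (112 ± 69.7 against 56.5 ± 6.03 CPM, 0.99 ± 0.33, adjusted p = 0.142) and Gbp7 (307 ± 19.3 against 228 ± 27.0 CPM, 0.43 ± 0.15, adjusted p = 0.153) also had no overlap with spleen. Gbp4, the GTPase of highest CPM, had 569 ± 95.6 CPM in tumor-retained cells and 408 ± 56.9 CPM in spleen, with overlapping values (0.48 ± 0.19, adjusted p = 0.210). It shares 23774 bases of its gene span with Gbp8 and 23773 with Gbp9, so its reads may be split among them. The immunity-related GTPases Igtp, Irgm1 and Irgm2 differed by 0.31, -0.34 and 0.03, and Igtp and Irgm2 share 7974 bases of their spans. Iigp1 was scattered, at 0, 29.3, 3.25 and 2.96 CPM in tumor-retained and 7.89 to 22 CPM in spleen libraries. The median of the 8 genes was 0.37, with 6 above 0.

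The OAS family holds oligoadenylate synthetases, which answer double-stranded RNA by activating RNase L, and related genes such as Oasl1. In tumor-retained cells 4 of its 5 genes were at lower means than in spleen, with a median log2 fold change of -0.79. Between these groups 0 of 5 passed, against 2.41% of all genes. At an unadjusted p under 0.05 in edgeR there was 1, Oas3, against 16.7% of all genes and 23.5% of those of at least 10 CPM. DESeq2 also called Oas3, and 8.31% of all genes. Oas3, of highest CPM among the 5, had 62.3, 66.7, 63.2 and 50.9 CPM in spleen, 53.6, 44.1, 79.0 and 30.5 CPM in egressed and 24.2, 37.6, 14.7 and 20 CPM in tumor-retained libraries. Each tumor-retained value was below each spleen value, and egressed values overlapped both. The difference between tumor-retained cells and spleen was -1.33 ± 0.36 with an adjusted p of 0.0779 in edgeR. Without tumor-retained libraries 3 and 4 it was -1.0 with an adjusted p of 0.262, and without the 3 libraries of few genes -1.31 with an adjusted p of 0.0312. Oas2 had no count in tumor-retained library 2 and otherwise had 9.95, 21.7 and 16.5 CPM there, against 23.5 to 42.1 CPM in spleen. Oas1a differed from the other 4 in having 9.95, 12.4, 30.7 and 34.8 CPM there, which straddled the 14.4 to 21.5 CPM of spleen. The related Oasl1, which in mice restrains Irf7, had 17.5 ± 4.49, 19.5 ± 14.8 and 10.1 ± 4.29 CPM in spleen, egressed and tumor-retained cells. Oasl2 had 28.0 ± 4.67, 41.2 ± 33.9 and 21.5 ± 9.70 CPM, and for both genes the groups overlapped.

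Among the IFIT genes and other antiviral effectors, Isg20 was the only 1 of 12 that passed. It did so between tumor-retained cells and spleen, where 2.41% of all genes passed. Mx1, a GTPase that traps viral ribonucleoprotein, had 25.1, 26.3, 29.1 and 23.2 CPM in spleen, 133, 61.3, 70.3 and 81.0 CPM in egressed and 87.8, 47.3, 35.1 and 61.0 CPM in tumor-retained libraries. Every egressed and every tumor-retained value was above every spleen value, and the former groups overlapped. The difference from spleen was 1.16 ± 0.33 in tumor-retained cells (adjusted p = 0.0924 in edgeR) and 1.74 ± 0.33 in egressed cells (adjusted p = 0.0520). Slfn5, a schlafen protein, had 3.41, 34.1, 24.4 and 24.2 CPM in tumor-retained libraries, all below the 39.7 to 57.2 CPM of spleen (-1.22 ± 0.57, adjusted p = 0.307), and it overlaps an antisense gene over 9333 bases. Samd9l, a restriction factor and the effector of highest CPM, had 241 ± 42.9, 249 ± 79.4 and 210 ± 68.9 CPM in spleen, egressed and tumor-retained cells. Ifit1 and Ifit3 were wide within the tumor-retained group: Ifit1 had 268, 118, 44.1 and 59.8 CPM and Ifit3 had 310, 128, 63.7 and 43.9 CPM there. Both were highest in library 1, and libraries 3 and 4 were the lower ones. Bst2 had 93.5 ± 8.52, 139 ± 24.5 and 87.4 ± 55.2 CPM in spleen, egressed and tumor-retained cells, and all 4 egressed values were above spleen. Cmpk2, a mitochondrial nucleotide kinase that neighbours Rsad2 on chromosome 12, had 47.3 ± 4.30, 52.9 ± 26.8 and 32.0 ± 20.5 CPM. Ifit2 had 47.8 ± 4.31, 47.7 ± 23.0 and 54.6 ± 16.9 CPM, with overlap between all groups.

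Of the transcription factors, 0 of 4 passed in any comparison. Of all genes, 1.1% passed between egressed and tumor-retained cells, 0.368% between egressed cells and spleen and 2.41% between tumor-retained cells and spleen. At an unadjusted p under 0.05 in edgeR there were 0, 1 and 0 in the same order, against 17.4%, 8.79% and 16.7% of all genes. Among genes of at least 10 CPM the shares were 20.3%, 15.0% and 23.5%. DESeq2 called 1, Irf7 between egressed cells and spleen, and 2.40% of all genes there. Irf1, which responds to interferon gamma, was at 512 ± 48.7, 516 ± 69.5 and 611 ± 115 CPM in spleen, egressed and tumor-retained cells. Its difference between egressed and tumor-retained cells was -0.24 ± 0.15 with a 95% interval of -0.58 to 0.09. Irf7, the factor that amplifies type I interferon production, had 191, 190, 274 and 191 CPM in spleen, 408, 282, 410 and 414 CPM in egressed and 434, 292, 161 and 221 CPM in tumor-retained libraries. All egressed values were above all spleen values, while tumor-retained values spanned both. The difference of egressed cells from spleen was 0.84 ± 0.27 with an adjusted p of 0.279. Irf9 and Stat2, parts of the complex that binds the ISRE, showed overlapping groups. Irf9 had 188 ± 19.1, 192 ± 61.3 and 135 ± 62.9 CPM and Stat2 had 111 ± 7.14, 148 ± 46.7 and 115 ± 20.9 CPM in spleen, egressed and tumor-retained cells.

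Between egressed cells and spleen, edgeR called 0 of 43 genes, against 0.368% of all genes tested, and DESeq2 called Mx1, Isg20 and Irf7 and 2.40% of all genes. At an unadjusted p under 0.05 in edgeR there were 8 (6 higher, 2 lower), or 18.6%, against 8.79% of all genes. In 8 genes, also 18.6%, every egressed library was above every spleen library, against 2.94% of all genes. These were Mx1, Isg20, Irf7, Ifi27l2a, Ifit3b, Ifit3, Bst2 and Gbp3. How reads divide between the close copies Ifit3 and Ifit3b is uncertain, so this count may hold the same signal more than once. In 2 genes, Dtx3l and the ADP-ribosyl transferase Parp14, every egressed library was below, against 11.1% of all genes. The shares depend on the level of the genes compared. Among the 9054 genes of at least 10 CPM, 15.0% had an unadjusted p under 0.05 in edgeR. Of these 9054, 5.39% had all egressed libraries above spleen and 16.3% had them all below. The median log2 fold change of the list was 0.44, with 33 genes above 0 and 10 below, beside -0.13 over all genes. Median-of-ratios scaling moved both, to 0.61 and 0.03, so that the distance between them was 0.56 to 0.58 under the 3 scalings tried. Without egressed libraries 3 and 4 and tumor-retained library 1, the median of the list was 0.17 and that of all genes -0.02.

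Isg20 between egressed cells and spleen was 52.9 ± 2.77 against 21.1 ± 4.99 CPM, a difference of 1.33 ± 0.32 with an adjusted p of 0.128 in edgeR. Mx1, at 86.4 ± 32.1 against 25.9 ± 2.49 CPM, missed the threshold at an adjusted p of 0.0520 and passed it in 10 of the 23 other settings tried, at adjusted p down to 2.25e-06 in DESeq2. Ifi27l2a, a small membrane protein, had 87.1, 103, 114 and 101 CPM in spleen and 208, 136, 266 and 189 CPM in egressed libraries, with no overlap (0.98 ± 0.42, adjusted p = 0.485). Ifit3b had 24.1 to 60.0 CPM in egressed and 11.6 to 16.9 CPM in spleen libraries (1.54 ± 0.81, adjusted p = 0.711), and its near identity with Ifit3 means that the division of reads between them is uncertain. Zbp1, a sensor of Z-form nucleic acid, had 230 ± 49.4 CPM in egressed cells and 153 ± 29.9 CPM in spleen (0.59 ± 0.27, adjusted p = 0.590), and of the other sensors Dhx58 differed by 0.51 ± 0.44 and Ifih1 by -0.04 ± 0.88. The comparisons of egressed and of tumor-retained cells with spleen use the same 4 spleen libraries, so that their values for a gene are not independent.

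**Figure D3:**
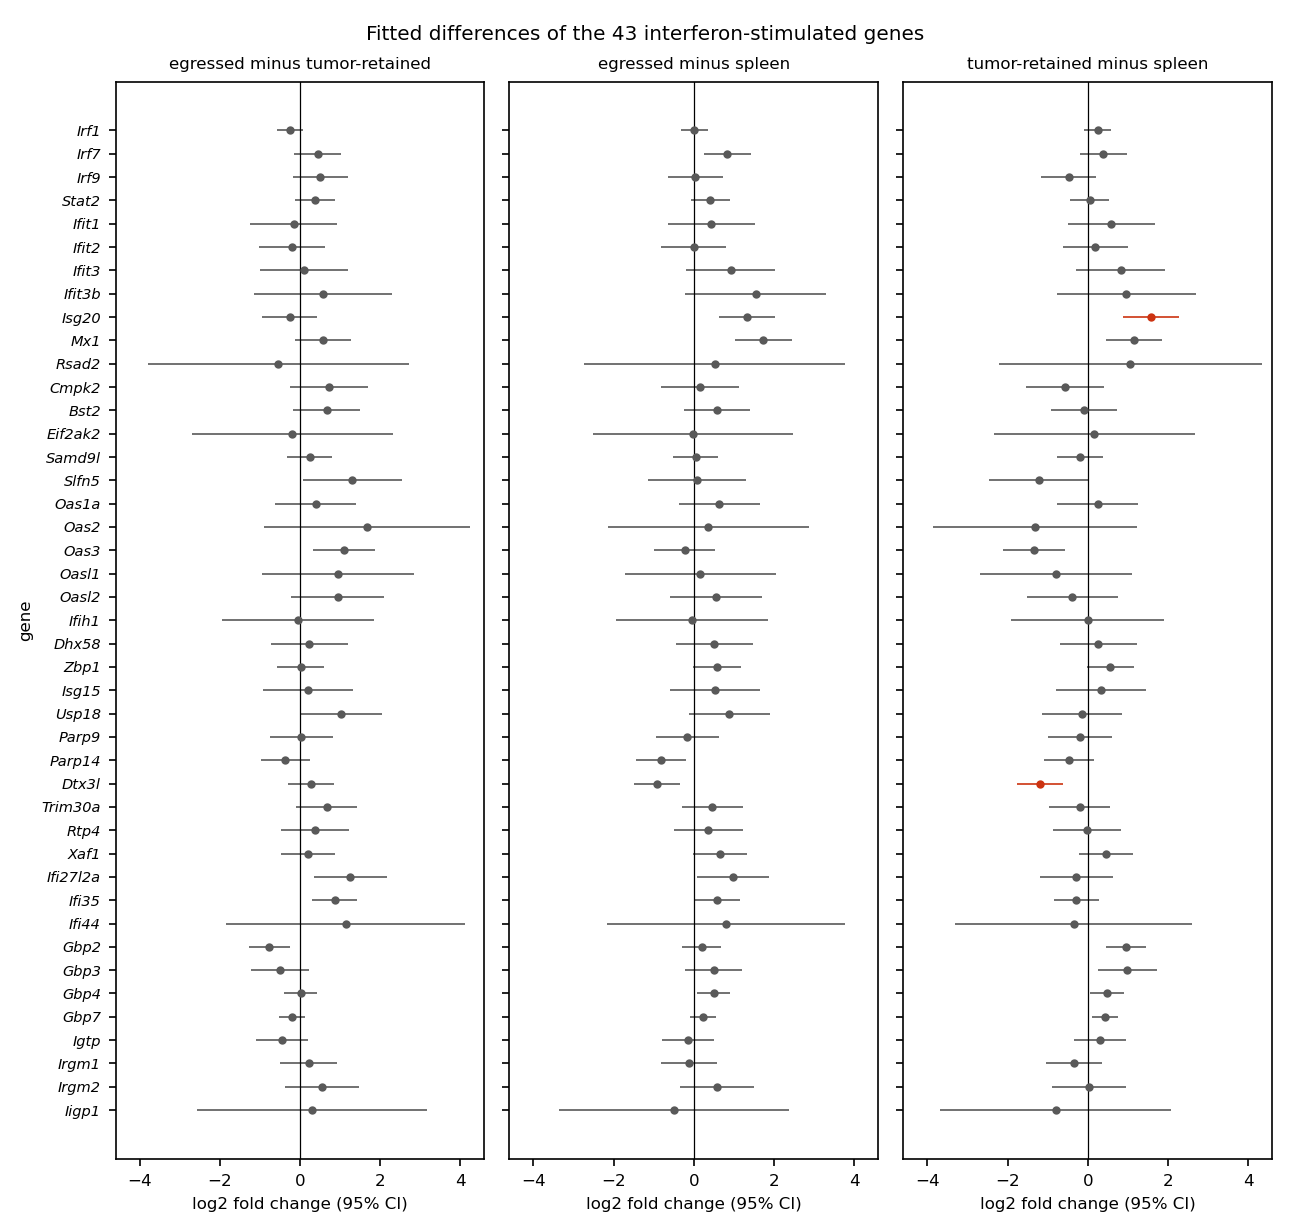
Fitted log2 fold change with its 95% interval for each of the 43 genes in 3 comparisons; red marks an adjusted p under 0.05 in edgeR and grey the rest. Only Isg20 and Dtx3l, both between tumor-retained cells and spleen, are red, and the intervals of low or scattered genes such as Rsad2, Eif2ak2, Oas2, Ifi44 and Iigp1 span more than 4 log2 units.

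Between egressed and tumor-retained cells, which compares cells that left the tumor with cells that stayed, edgeR called 0 of 43 genes, against 1.1% of all genes tested, and DESeq2 called Ifi35, Gbp2, Oas3 and Ifi27l2a and 8.99% of all genes. At an unadjusted p under 0.05 in edgeR there were 6 of 43 (14.0%), against 17.4% of all genes and 20.3% of those of at least 10 CPM. No gene of the list had its 4 egressed libraries all above or all below the tumor-retained ones, against 3.14% and 3.21% of all genes, and 5.33% and 5.82% of those with a mean of at least 10 CPM. The median log2 fold change was 0.28, with 31 genes above 0 and 12 below, beside 0.00 over all genes. When tumor-retained libraries 3 and 4 were left out, the median was 0.06 beside 0.22 over all genes, so that the list then lay below genes at large. Without tumor-retained library 1 it was 0.57 beside 0.00. The part of the macrophage and stromal RNA in these medians was not tested.

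Ifi35, which forms a complex with Nmi, had 143, 94.8, 187 and 134 CPM in egressed and 107, 66.7, 73.5 and 58.0 CPM in tumor-retained libraries, overlapping at 1 library on each side (0.87 ± 0.26, adjusted p = 0.126 in edgeR). Ifi27l2a had 174, 66.1, 63.0 and 30.4 CPM in tumor-retained cells, of which library 1 lay inside the egressed range. Its difference was 1.26 ± 0.42 with an adjusted p of 0.151, and it was 1.92 at 0.0135 without tumor-retained library 1. Oas3 differed by 1.10 ± 0.35 (adjusted p = 0.149) and all 5 genes of the OAS family had a log2 fold change above 0. Gbp2 differed in the other direction, by -0.76 ± 0.23 (adjusted p = 0.135), and by -1.07 without tumor-retained libraries 3 and 4 (adjusted p = 0.0397). The 8 GTPases had a median of -0.09, with 4 above 0 and 4 below. Slfn5 and Oas2 had large fold changes with large errors, 1.30 ± 0.57 and 1.68 ± 1.18.

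The modifiers and regulators gave 1 call, Dtx3l, in 11 genes and 3 comparisons. The call was between tumor-retained cells and spleen, where 2.41% of all genes passed. Isg15, which is attached to proteins like ubiquitin, had 17.6 to 25.3 CPM in spleen, 52.9, 14.8, 51.2 and 11.7 CPM in egressed and 40.3, 21.9, 32.8 and 18.4 CPM in tumor-retained libraries. Its egressed values lay on both sides of spleen, and the 95% interval of egressed minus tumor-retained cells was -0.92 to 1.33. Usp18, which removes Isg15 and restrains the type I receptor, had 207, 88.1, 108 and 200 CPM in egressed and 165, 32.4, 49.4 and 48.4 CPM in tumor-retained libraries (1.03 ± 0.47, adjusted p = 0.280 in edgeR). Trim30a, the regulator of highest CPM, had 165 ± 14.3, 227 ± 83.8 and 143 ± 82.6 CPM in spleen, egressed and tumor-retained cells. Xaf1, which favours cell death, had 69.8 ± 12.4, 110 ± 22 and 95.7 ± 47.0 CPM, and Rtp4, a receptor transport protein, had 79.2 ± 4.08, 102 ± 48.1 and 78.4 ± 44.4 CPM. Parp14 was at 142 ± 22.3, 80.5 ± 36.2 and 103 ± 13.8 CPM, and spleen was above both other groups without overlap, though no test passed (adjusted p = 0.334 and 0.523 in edgeR). Between tumor-retained cells and spleen the median of the 11 was -0.20, with 9 below 0 under TMM and 7 below 0 under median-of-ratios scaling.

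The spread among libraries of a group was itself shared by many genes of the list. The median coefficient of variation of the 43 genes was 15.7% in spleen, 37.2% in egressed and 45.2% in tumor-retained libraries, beside 12.4%, 35.5% and 38.0% for the 9054 genes of at least 10 CPM. Spleen library 3 was the highest of its group for 28 of 43 genes (65.1%), against 24.2% of all genes tested. Tumor-retained library 1 was the highest of its group for 26 of 43 (60.5%), against 25.1% of all genes. It was the lowest of its group for 53.9% of all genes, but it had a count for 15296 genes, fewer than the 21457 tested. Libraries without a count for a gene tie as lowest, and each gene was credited to only 1 library. Egressed library 2 was the lowest of its group for 23 of 43 (53.5%), against 15.4% of all genes, and the highest for 1. The shares of all genes were not matched for level, while 42 genes of the list had a mean of at least 10 CPM. Egressed libraries 3 and 4 had a count for 14927 and 15251 genes, which bears on the lowest ranks in that group. The genes of the list are not independent of each other, and no test was made of these shares.

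**Figure D4:**
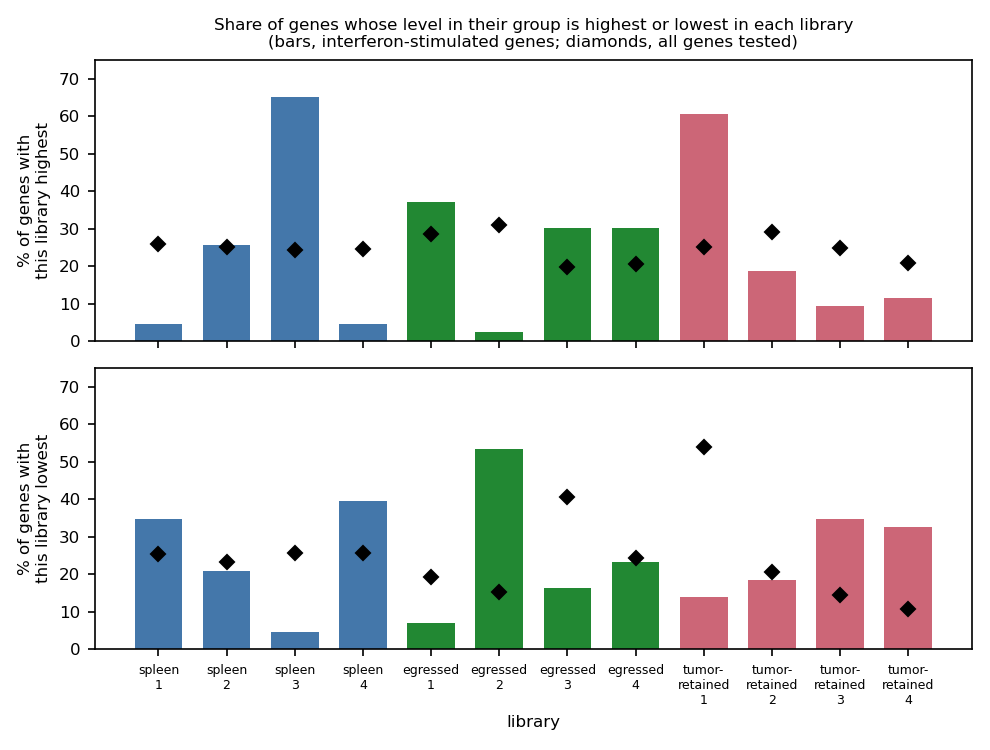
Share of genes for which each library was the highest (upper) or lowest (lower) of its group, in percent, with bars for the 43 interferon-stimulated genes and diamonds for all genes tested. The diamonds take in genes with no count in a library and were not matched for level. Spleen library 3 and tumor-retained library 1 stand above their diamonds as highest at 65.1% and 60.5%, and egressed library 2 as lowest at 53.5%.

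A few genes were absent from single libraries. Of 516 values of a gene in a library, 5 were 0, none of them in spleen. Rsad2, which makes an antiviral nucleotide, had 58.6 and 27.6 CPM in egressed libraries 1 and 2, 0.0327 CPM in library 3 and no count in library 4. Eif2ak2, the kinase that halts translation on double-stranded RNA, had no count in egressed library 3 and 14.7 to 26.4 CPM in the other egressed libraries. Ifi44 and Iigp1 had none in tumor-retained library 1. These 4 zeros were in the 3 libraries with few detected genes, and the fifth was Oas2 in tumor-retained library 2. The part of the low gene number in these zeros was not tested.

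The wider interferon pathway was read from 4 further lists of 102 genes, of which 4 symbols were not found in the table. Among the interferon genes 2 of 10 were tested, and Ifnb1, the interferon beta gene, reached at most 1.25 CPM in any library. Ifng, interferon gamma, had 23.0, 18.5, 15.9 and 11.2 CPM in spleen, 122, 104, 15.5 and 77.4 CPM in egressed and 322, 187, 60.7 and 170 CPM in tumor-retained libraries. Every tumor-retained value was above spleen, while egressed library 3 lay inside the spleen range. Ifng rose by 3.43 ± 0.62 from spleen to tumor-retained cells (adjusted p = 0.0109 in edgeR), and the call was lost without spleen library 2, 3 or 4 (0.0502 to 0.0565). In egressed cells it differed from spleen by 2.22 ± 0.59 (adjusted p = 0.162).

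Of the 21 tested receptors and signalling genes, Ifngr1 rose and Jak1 fell between spleen and tumor-retained cells, where 2.41% of all genes passed. Ifngr1 was also lower in egressed than in tumor-retained cells, a comparison in which 1.1% of all genes passed. Ifngr1, the ligand-binding chain of the interferon gamma receptor, was at 553 ± 12.6 CPM in spleen, 847 ± 236 CPM in egressed and 2385 ± 1049 CPM in tumor-retained cells. The 4 tumor-retained libraries, from 1202 to 3661 CPM, were above every library of both other groups. The rise from spleen was 2.11 ± 0.30 (adjusted p = 0.00259), called in 23 of 23 other settings, and the difference of egressed from tumor-retained cells was -1.49 ± 0.30 (adjusted p = 0.0356). The latter was lost without any 1 spleen or egressed library or without tumor-retained library 2 or 4, at adjusted p of 0.0595 to 0.0717, in a fit of the pair of groups alone, at 0.200, and without the 3 libraries of few genes, at 0.0732. Jak1, the kinase that both receptors use, fell from 2218 ± 128 to 1433 ± 311 CPM (-0.63 ± 0.15, adjusted p = 0.0436) and was called in 4 of 23 other settings. The call was lost without any 1 spleen library, egressed library 1, 2 or 4 or tumor-retained library 2, 3 or 4, at adjusted p of 0.0503 to 0.130, without tumor-retained libraries 3 and 4 together, at 0.105, and with the mouse number as a block, at 0.0704. Ifnar1, of the type I receptor, had 230 ± 15.5, 243 ± 30.5 and 338 ± 79.7 CPM in spleen, egressed and tumor-retained cells (0.56 ± 0.17 for tumor-retained minus spleen, adjusted p = 0.117).

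**Figure D5:**
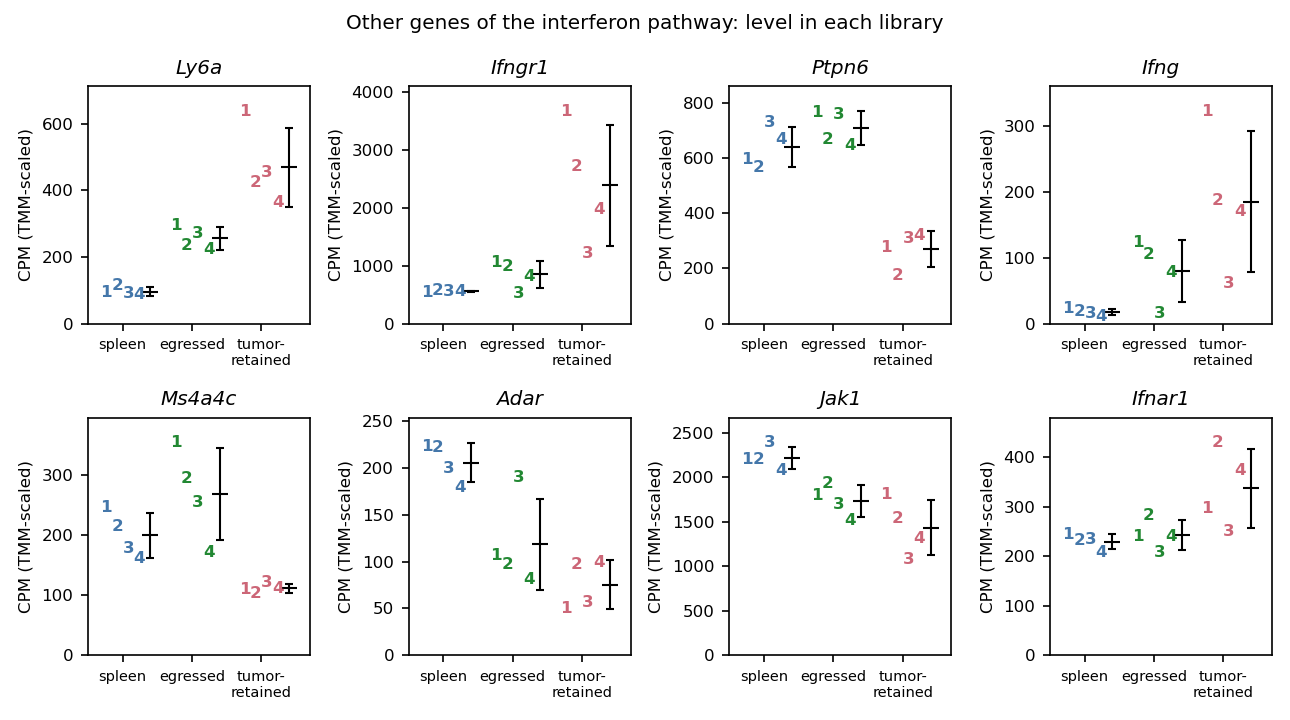
CPM (TMM-scaled) of 8 further genes of the interferon pathway in each library, with digits giving the library number and the bar the mean ± SD of 4 libraries. Ly6a steps up from spleen through egressed to tumor-retained cells with no overlap and Ptpn6 and Ms4a4c are lower in tumor-retained cells.

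Of all genes, 1.1% passed between egressed and tumor-retained cells and 2.41% between tumor-retained cells and spleen. Of the 10 negative regulators only Ptpn6, a tyrosine phosphatase that dampens cytokine and antigen receptor signals, passed. It had 594, 567, 729 and 668 CPM in spleen, 764, 666, 758 and 647 CPM in egressed and 275, 176, 309 and 318 CPM in tumor-retained libraries. Tumor-retained cells were below both other groups without overlap, and egressed cells overlapped spleen. It was higher in egressed than in tumor-retained cells by 1.39 ± 0.18 (adjusted p = 0.00476 in edgeR) and fell from spleen to tumor-retained cells by -1.25 ± 0.18 (adjusted p = 0.00248). Leaving out tumor-retained libraries 3 and 4 gave 1.66 and -1.52. In a fit of the pair of groups alone the adjusted p between egressed and tumor-retained cells was 0.0522.

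Of 56 tested further interferon-stimulated genes, 2 passed between egressed and tumor-retained cells, 1 between egressed cells and spleen and 2 between tumor-retained cells and spleen, against 1.1%, 0.368% and 2.41% of all genes, and their medians were 0.00, 0.01 and -0.01. Ly6a, a surface antigen of stem cells and activated T cells that interferons induce, had 93.0, 115, 89.0 and 87.8 CPM in spleen, 296, 234, 270 and 222 CPM in egressed and 637, 424, 455 and 362 CPM in tumor-retained libraries. The 3 groups did not overlap. Ly6a rose from spleen by 2.29 ± 0.19 in tumor-retained cells (adjusted p = 8.66e-05 in edgeR, called in 23 of 23 other settings) and by 1.41 ± 0.18 in egressed cells (adjusted p = 0.0114), and it was lower in egressed than in tumor-retained cells by -0.88 ± 0.18 (adjusted p = 0.0452). Leaving out spleen library 1, 3 or 4 or egressed library 1 ended the egressed call against spleen, at adjusted p of 0.0505 to 0.0824, and leaving out any 1 spleen or egressed library or tumor-retained library 3 ended the call between egressed and tumor-retained cells, at 0.0693 to 0.119, as did leaving out the 3 libraries of few genes, at 0.0773. The latter call was also lost with the mouse number as a block (0.0802), in a fit of the pair of groups alone (0.175), under library size scaling (0.0627) and with every gene that had a count (0.0615), and it was made in 9 of 23 other settings. Ms4a4c, a membrane protein of the Ms4a family, was 268 ± 76.3 CPM in egressed and 111 ± 7.95 CPM in tumor-retained cells (1.27 ± 0.21, adjusted p = 0.0165), lost without egressed library 1 or tumor-retained library 4 (0.0564 each) without tumor-retained libraries 3 and 4 (0.0593) or in a fit of the pair of groups alone (0.105). Adar, an RNA-editing deaminase, fell from 206 ± 20.9 CPM in spleen to 75.4 ± 25.9 CPM in tumor-retained cells (-1.45 ± 0.30, adjusted p = 0.0247), and the call was lost without any 1 spleen library, egressed library 2 or tumor-retained library 1 or 3 (0.0507 to 0.0858), without libraries 3 and 4 of the latter (0.0763) or with the mouse number as a block (0.0891). Ifitm3, an antiviral membrane protein that other cell types also express, had 23.0, 14.2, 428 and 217 CPM in tumor-retained libraries and at most 3.42 CPM in the other groups. Its highest values were in libraries 3 and 4, which carried the macrophage and stromal markers, and the part of those cells was not tested.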

How the data were processed

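Per the labels' protocols, RNA was taken up in Takara lysis solution and libraries were made with a SMART-Seq v4 kit for very low input, which adds no molecular identifiers. Tools listed in the submitters' processing notes are STAR 2.7.3a, cutadapt 2.5, Cufflinks 2.2.1 and Bowtie2 2.5.1, with the build mm10, and neither the counting program nor its annotation is given in them. The authors deposited raw counts per gene symbol and log2 values, which equal log2(count / size factor + 1) per library.

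Counts were tested with edgeR 4.0.16 in R 4.3.3 (filterByExpr, TMM, 1 quasi-likelihood model of 3 groups, no block). DESeq2 1.42.0, limma 3.58.1, other scalings and filters, and left-out libraries were alternatives. Tissues came from 4 mice and the 3 groups carry the same 4 numbers in the labels, so equal numbers were taken as 1 mouse and tried as a block. Same-numbered libraries deviated from their group means with correlations from -0.124 to 0.117. In 5 of 24 matches between groups the library of the same number was the best. Whether the block pairs libraries of 1 mouse is thus not known. No libraries of a group were copies (lowest chi-square per degree of freedom 19.4). Positions are from GENCODE M21. 27 symbols had become dates (at most 0.227% of counts). The genes and lists were chosen with earlier results of these data known. Genes named are those that passed, the highest in CPM and the most different of each role, and others of the list where a count or spread is described, chosen after their values were seen. 1 gene of the pathway lists is not reported here.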

Additional observations from a re-analysis of the deposited data

Results flagged for a closer look

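In 6 of 156 sets of 4 libraries, 1 library lay far from the other 3 by Dixon's test, and chance alone gives about 1 in 20. The sets were each gene of the list and the pathway genes chosen by rule, in each group. Ifitm3 and Ifnb1 were not examined in this way. Irf7 had 274 CPM in spleen library 3, against 190.3 to 191.1 CPM in the other spleen libraries, and 282 CPM in egressed library 2, against 407.6 to 414.4 CPM. Usp18 had 165 CPM in tumor-retained library 1, against 32.4 to 49.4 CPM, and Gbp3 had 216 CPM there, against 64.3 to 89.7 CPM. Iigp1 had 29.3 CPM in tumor-retained library 2, against 0 to 3.25 CPM. Ifngr1 had 534 CPM in spleen library 1, against 557.4 to 561.4 CPM, a narrow spread in absolute terms.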

How the results depend on the processing

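Counts of calls in the list moved with the method. Between egressed and tumor-retained cells edgeR called 0 of 43 genes; DESeq2 called 4 (8.99% of all genes, against 1.1% in edgeR), leaving out tumor-retained libraries 3 and 4 gave 1 (Gbp2), leaving out egressed libraries 3 and 4 with tumor-retained library 1 gave 1 (Ifi27l2a), and leaving out single libraries gave 0 to 2. Between egressed cells and spleen 0 were called; median-of-ratios scaling, library size scaling, a mean of at least 1 CPM, limma on log2 CPM, limma on the deposited log2 values and leaving out tumor-retained libraries 3 and 4 each gave 1 (Mx1), DESeq2 gave 3 (2.40% of all genes, against 0.368%), a fit of the pair of groups alone 2, and single left-out libraries 0 to 1. Between tumor-retained cells and spleen 2 were called (2.41% of all genes); every gene with a count gave 0 (0.849%), DESeq2 7 (8.31%), limma on the deposited values 4 (3.69%), the pair of groups alone 4 (6.73%), leaving out egressed libraries 3 and 4 with tumor-retained library 1 gave 5 (8.85%), and single left-out libraries 0 to 3. The causes were not tested. With the mouse number entered as a block, the counts were 0, 0 and 0 in the same order. Beside the list, the block ended the calls of Adar, Jak1 and, between egressed and tumor-retained cells, Ly6a, and it changed no other call named. Over all alternatives the median log2 fold change of the list ranged from 0.06 to 0.57 for egressed minus tumor-retained, from 0.17 to 0.67 for egressed minus spleen and from -0.11 to 0.25 for tumor-retained minus spleen. The 95% intervals of Ifi44, Iigp1 and Rsad2 were wide.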
